A study of Homo sapiens with 2 samples.

Results

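Clustered histone genes are those whose older symbols start with HIST1, HIST2, HIST3 or HIST4, or whose current symbols are H1-1 to H1-6 or start with H2AC, H2BC, H3C or H4C. By that rule the RefSeq gene table held 93 such genes, 72 of them protein-coding and 21 pseudogenes. A probe set assigned to 1 gene alone was found for 46 of the 93, out of 19775 genes with such a probe set on the array. The 46 comprised 6 genes of the linker histone H1, 9 of H2A, 14 of H2B, 8 of H3 and 9 of H4. The samples were HT-29 cells, an established human colorectal cancer line, grown as monolayer in medium with 10% fetal bovine serum, or as spheroids for 5 days on low-adhesion plates in stem cell media containing B27, EGF and FGF. No genetic change or drug was applied to either culture, and growth form and medium differed together. The RNA of either culture was hybridised to 1 array (Affymetrix U133 Plus 2.0), so that no difference below has a replicate check and no test was run. Values are MAS5 signals on a linear scale.

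Nucleosomes are built from the core histones H2A, H2B, H3 and H4, and H1 binds the linker DNA between them. The clustered genes lie in several tight groups in the genome and are transcribed in S phase, when new DNA has to be packaged. Most of their mRNAs have no introns and end in a stem-loop instead of a poly(A) tail. The stem-loop binding protein SLBP holds this end during processing and translation. Some clustered genes, such as H1-2, H2BC12 and H2BC21, can also make polyadenylated mRNA. The labelling used here, a 3' IVT kit, copies RNA from its poly(A) tail. Whether an mRNA without a tail was labelled was not tested, and its signal may understate its level.

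The upstream sequences of 6 genes, chosen for the array values discussed below, are examples from each class and need not be typical of it. H2BC21, H3C6 and H4C4 were at least 2-fold higher in spheroids, and H2BC12, H2AC6 and H1-2 gave clear signals in both cultures. Each line gives 200 bases before the annotated start, 5′ to 3′ on the gene's strand, from RefSeq on GRCh38.p14. Capitals mark matches on either strand to 4 motifs: the octamer ATTTGCAT, known from H2B promoters, the CCAAT box, the TATA box, searched as TATAAA, and the H1 box AAACACA, known from H1 promoters. No motif's letters contain another's.
H2BC21, chr1:149886683-149886882, reverse strand: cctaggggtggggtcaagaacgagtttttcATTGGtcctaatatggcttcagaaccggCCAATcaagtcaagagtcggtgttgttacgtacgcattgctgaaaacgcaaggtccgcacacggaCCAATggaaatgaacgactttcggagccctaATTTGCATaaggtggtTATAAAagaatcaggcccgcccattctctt
H2BC12, chr6:27146859-27147058, reverse strand: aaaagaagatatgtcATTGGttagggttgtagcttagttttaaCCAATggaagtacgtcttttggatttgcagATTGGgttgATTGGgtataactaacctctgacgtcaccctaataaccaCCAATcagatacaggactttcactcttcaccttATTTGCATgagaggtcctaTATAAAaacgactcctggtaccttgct
H2AC6, chr6:26123972-26124171, forward strand: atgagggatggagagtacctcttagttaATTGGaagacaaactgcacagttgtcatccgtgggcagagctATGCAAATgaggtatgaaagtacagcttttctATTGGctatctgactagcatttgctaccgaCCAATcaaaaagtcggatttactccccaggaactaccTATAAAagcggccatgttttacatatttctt
H1-2, chr6:26056471-26056670, reverse strand: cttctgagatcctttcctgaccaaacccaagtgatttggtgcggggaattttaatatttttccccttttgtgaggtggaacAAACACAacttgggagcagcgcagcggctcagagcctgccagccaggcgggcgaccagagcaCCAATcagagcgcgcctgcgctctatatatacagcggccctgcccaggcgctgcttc
H3C6, chr6:26223978-26224177, forward strand: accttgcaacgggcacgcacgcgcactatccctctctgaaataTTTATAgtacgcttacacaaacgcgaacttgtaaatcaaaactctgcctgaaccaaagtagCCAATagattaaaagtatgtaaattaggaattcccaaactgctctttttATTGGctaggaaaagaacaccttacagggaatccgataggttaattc
H4C4, chr6:26189113-26189312, reverse strand: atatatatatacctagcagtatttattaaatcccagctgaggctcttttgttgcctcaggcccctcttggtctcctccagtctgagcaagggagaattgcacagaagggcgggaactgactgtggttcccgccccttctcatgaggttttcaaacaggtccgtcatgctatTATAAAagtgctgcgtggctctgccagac
In these stretches the H2B genes H2BC21 and H2BC12 both held the octamer with its first base 46 bases before the start. H2AC6 held it on the opposite strand. H1-2 had the H1 box and 1 CCAAT box, and H4C4 only the TATA box. H3C6 had 2 CCAAT boxes and a TATA box on the opposite strand, 157 bases before the start.

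A window from 250 bases before to 50 bases after the start was listed for 66 of the 93 genes, and the first listed was taken. These were 65 different windows, since that of the H3 gene H3C4 is the same stretch as that of H2AC7. The octamer was present in 14 of 18 H2B and 11 of 16 H2A windows, in 1 of 13 H3 windows, the one that H3C4 shares with H2AC7, and in 0 of 6 H1 and 0 of 13 H4 windows, against 1.80% of all 27305 promoter windows. In 13 H2B genes it lay on the gene's own strand, and in 10 H2A genes on the other. H2A and H2B genes often lie head to head. With starts at most 500 bases apart there were 11 head-to-head promoters, each of an H2A and an H2B gene, 194 to 248 bases between the starts. The windows of such a pair overlap, so a match between the starts is counted for both genes, on opposite strands. The octamer of H2AC6 and that of H2BC4, for example, are the same site. The octamer counts of H2A and H2B windows are therefore not counts of separate sites. The head-to-head promoter of H2AC7 and H2BC7 is also the listed start of H3C4. The CCAAT box was found in all windows of H1, H2A, H2B and H3 genes and in 3 of 13 H4 windows, against 35.7% of all windows. The H1 box was found in 6 of 6 H1, 1 of 16 H2A, 0 of 18 H2B, 2 of 13 H3 and 0 of 13 H4 windows, against 5.76%. It lay on the gene's own strand in 5 of the 6 H1 genes, and in H1-1 only on the other. The TATA box was found in 44 of 66 windows, against 11.95%, and 36 of its 63 matches, in 36 genes, lay on the gene's own strand starting 40 to 20 bases before the start. These genes included 9 of the 13 H3 genes with a window, but not H3C6. A match describes letters in a window and does not show that a factor binds there.

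**Figure D1:**
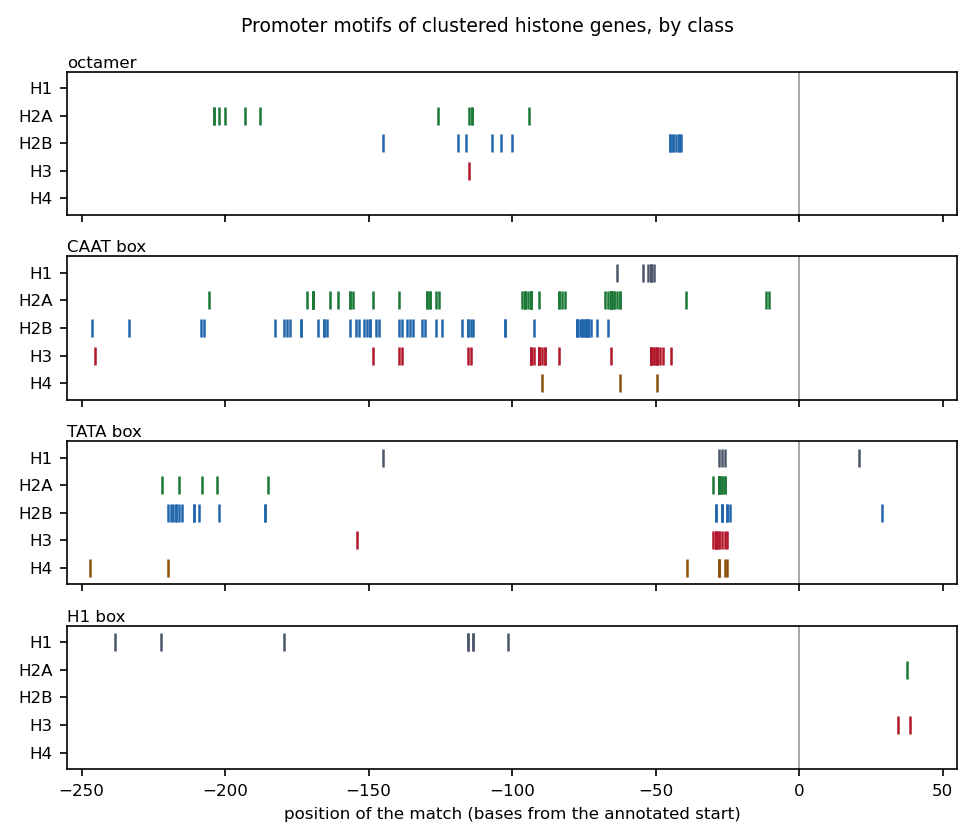
Positions of matches to 4 promoter motifs (ticks) in 66 clustered histone genes, by class (vertical axis) and distance in bases from the annotated start (horizontal axis). The octamer lies in H2B and H2A windows apart from the H3 window shared with H2AC7. Of 63 TATA box ticks, 36 are matches on the gene's own strand starting 40 to 20 bases before the start. The rest, on either strand, run from 250 bases before to 26 after the start, and a few of them fall in the same stretch.

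The same promoter letters occurred whether or not a gene gave a signal. A gene is called measured here if it exceeded a signal of 62.7, the floor, on at least 1 array. The floor is the median signal over both arrays together. The octamer was in 7 of the 17 windows of measured genes and in 9 of the 24 windows of genes under the floor on both arrays. Where genes of both groups lie head to head, as H2AC6 and H2BC4 do, the same octamer is counted in both. The TATA box was in 13 of 17 and in 15 of 24.

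Of the clustered histone genes 27 of 46 gave no signal above the floor, and the 11 above it on both arrays differed little between them. The other 8 exceeded it on 1 array, each gene being read from its brightest probe set. For a gene over the floor on 1 array the floor stands in for the other signal, and the difference is a bound. The measured share was thus 41.3%, where it was 66.7% over all genes with a probe set of their own. Among those 11 genes the log2 difference, spheroid minus monolayer, ran from -0.18 to 0.34, with a median of -0.03 and an SD across genes of 0.18. Over all 11555 genes measured on both arrays the median was -0.06 and the SD 0.49. An SD across genes holds no replicate variation. Of the 11 genes, 5 were read from _x_at probe sets and 1 from an _s_at set, whose probes can match several transcripts. The 11 values may therefore not all be separate signals. H2AC25 and H2BC5 each had a second probe set, with log2 differences of at most -0.81 and of -0.44.

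Over all 19 measured genes the median log2 difference was -0.00, with 9 genes above 0 and 10 under 0, and over all 13183 measured genes of the array it was -0.05. Scaling by the spike-in controls of the hybridisation put the median of the histone genes at 0.23 and that of all genes 0.18. At least 2-fold higher in spheroids were 3 of the 19, where 2.53% of all measured genes were. At least 2-fold lower were 0 of the 19, where 3.08% of all were. By their brightest probe sets the 3 exceeded the floor on the spheroid array only, and H3C6 has a dimmer one that exceeded it on both. Of the 8 histone genes measured on 1 array, 3 were thus past 2-fold upward and 0 downward, where 4.24% and 5.84% of all 1628 such genes were. Of the 11 histone genes measured on both arrays 0 were past 2-fold upward and 0 downward, where 2.29% and 2.69% of all such genes were. With 8 and 11 genes these shares are a description only.

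**Figure D2:**
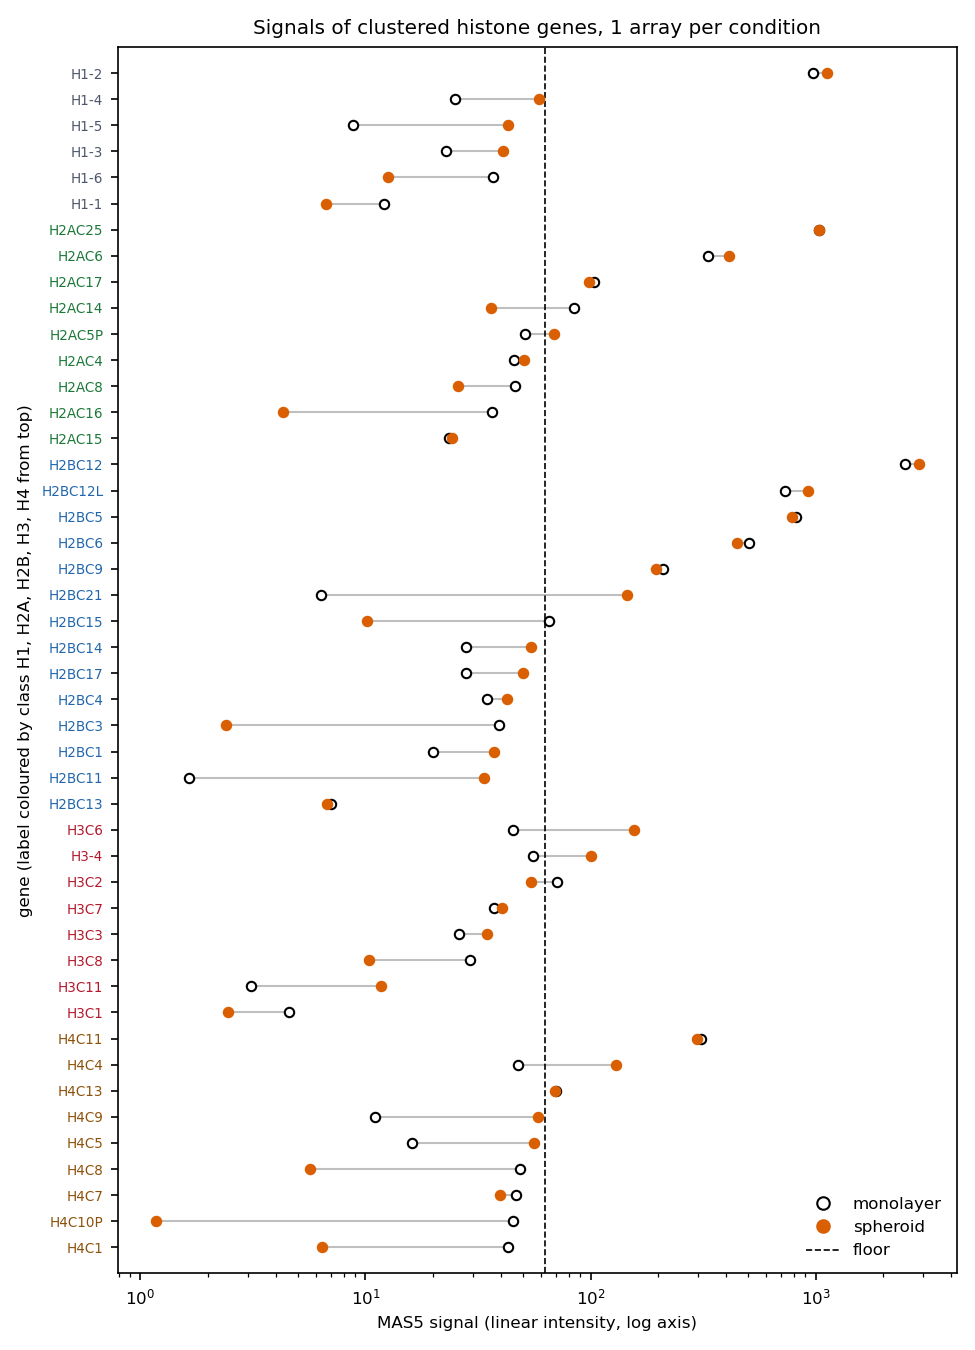
Signals of the 46 clustered histone genes on a log axis, with the monolayer array as open circles, the spheroid array as filled circles and the floor of 62.7 as a dashed line, 1 array per condition. To the right of the line the circles of a gene mostly overlap, and 27 genes lie to the left of it on both arrays.

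Among H1 genes, which compact chromatin by binding linker DNA, H1-2 alone was measured. Its signal was 974.2 in monolayer and 1121 in spheroids, a 1.15-fold higher level (log2 difference 0.20). H1-1, H1-3, H1-4, H1-5 and the testis gene H1-6 were under the floor on both arrays. The highest signal among them was 59.3, of H1-4 in spheroids, and no fold is given for them.

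Of 9 H2A genes 5 were measured, with a median log2 difference of -0.00. H2AC25, from the HIST3 cluster, had the same signal on both arrays, 1034.8 in monolayer and 1034.5 in spheroids. A second, dimmer probe set of H2AC25 went from 110.2 to 36.2, under the floor (log2 difference at most -0.81), so that the probe sets of this gene did not move alike. H2AC6 went from 331.5 to 412.0, 1.24-fold higher, and H2AC17 from 103.4 to 98.9. H2AC14, whose probe set may also match other genes, went from 84.2 to 36.3, under the floor, which makes it at least 1.34-fold lower. The pseudogene H2AC5P was at 51.4, under the floor, in monolayer and at 68.8 in spheroids, at least 1.10-fold higher. H2AC4, H2AC8, H2AC15 and H2AC16 were under the floor on both arrays.

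H2B held the most measured genes, 7 of 14, with a median log2 difference of -0.06. H2BC12, which can make a polyadenylated mRNA, had signals of 2494 in monolayer and 2876 in spheroids, 1.15-fold higher. H2BC12L, a gene of the same class that has no HIST symbol and is a member by its current symbol, went from 729.0 to 925.9, 1.27-fold higher. H2BC5 was at 822.4 and 782.4, 1.05-fold lower, and by its other probe set at 499.4 and 368.6, a log2 difference of -0.44. H2BC6 went from 507.9 to 447.8 (-0.18) and H2BC9 from 210.9 to 195.5 (-0.11). The probe sets of H2BC12L, H2BC5, H2BC6 and H2BC9 have names ending in _x_at, which marks probes that also match other genes, so near-identical H2B copies may share their signal.
H2BC21 was the H2B gene with the largest difference. Its signal was 6.38 in monolayer, far under the floor, and 144.8 in spheroids, so that it was at least 2.31-fold higher (log2 difference at least 1.21) by its only probe set, an _s_at set, whose probes match several transcripts. H2BC15 was at 65.4 in monolayer, close to the floor, and at 10.2 in spheroids, at least 1.04-fold lower. H2BC1, H2BC3, H2BC4, H2BC11, H2BC13, H2BC14 and H2BC17 were under the floor on both arrays. H2BC4 lies head to head with H2AC6, with 246 bases between their starts. H2AC6 was measured on both arrays, while H2BC4 had signals of 34.8 in monolayer and 42.4 in spheroids. Head-to-head neighbours with a probe set each numbered 4, and in 4 of 4 only 1 gene was measured by its own probe set. Of all 46 members 41.3% were measured. The others were H2AC14 beside H2BC14 (28.1 and 54.2), H2BC15 beside H2AC15 (23.5 and 24.2) and H2AC17 beside H2BC17 (27.9 and 49.98), where the values in parentheses are the signals of the gene under the floor in monolayer and in spheroids. Some probe sets assigned to several genes exceeded the floor on both arrays and include H2BC4 (193.0 and 283.8 in 1 of them) or H2AC15 (75.8 and 81.6). The count therefore does not show that only 1 gene of a pair was expressed.

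H3, whose tail carries many of the best known histone marks, had 3 of 8 genes measured, all 3 on 1 array by their brightest probe sets. H3C6 was at 45.4 in monolayer and 156.8 in spheroids, at least 2.50-fold higher, a log2 difference of at least 1.32. Its other probe set was over the floor on both arrays, at 69.9 and 72.3, a log2 difference of 0.05, so that the probe sets of H3C6 differed by more than 1 on the log2 scale. H3-4, a testis H3 gene formerly named HIST3H3, went from 55.5 to 100.3, at least 1.60-fold higher. H3C2 went from 71.1 to 54.7, at least 1.13-fold lower. The other 5 H3 genes were under the floor on both arrays. The median log2 difference of 0.68 over the 3 measured H3 genes is therefore made of bounds alone.

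Among H4 genes, which encode the histone that pairs with H3, H4C11, read from an _x_at probe set, was at 309.7 in monolayer and 297.5 in spheroids (log2 difference -0.06) and H4C13 at 70.5 and 69.2 (-0.03), near the floor. A probe set made from the accession of H4C11 but assigned to 14 H4 genes was 2.23-fold lower in spheroids. H4C4 was at 47.6 and 130.0, at least 2.07-fold higher, a log2 difference of at least 1.05, by 1 probe set. The median of the 3 measured H4 genes was -0.03, and 6 H4 genes, the pseudogene H4C10P among them, were under the floor on both arrays.
H2BC21, H3C6 and H4C4 were the 3 genes past 2-fold. With the floor raised to 84.7, a level taken from olfactory receptor genes, their log2 differences were at least 0.77, 0.89 and 0.62, and 0 of the histone genes were then past 2-fold.

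**Figure D3:**
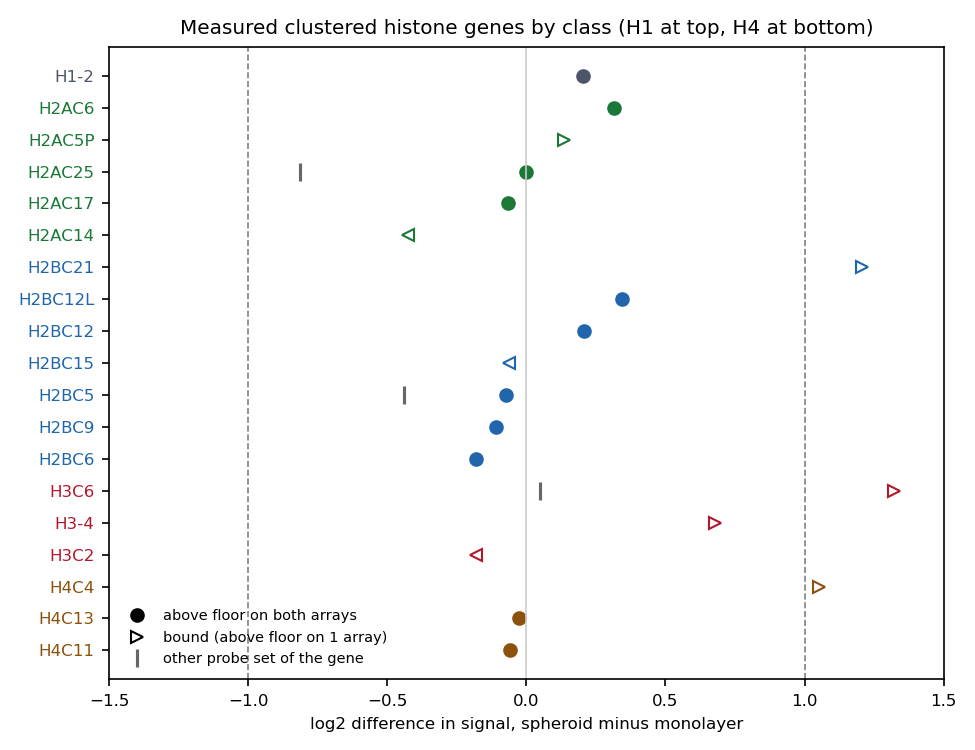
Log2 difference in signal between the spheroid and the monolayer array for the 19 measured clustered histone genes, 1 array per condition. Filled circles are genes above the floor on both arrays, open triangles are bounds, grey ticks are other probe sets and dashed lines mark 2-fold, and beyond the right line lie H2BC21, H3C6 and H4C4, all 3 as bounds.

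Clustered histone genes known to make polyadenylated mRNA made up a larger share of the measured genes than of the others. Of 7 such genes 5 were measured, namely H1-2, H2AC6, H2BC5, H2BC12 and H2BC21, while H2BC4 and H2BC11 were under the floor on both arrays. Of the other 39 genes 14 were measured, and over all genes with a probe set of their own the measured share was 66.7%. The median log2 difference was 0.21 over the 5 genes and -0.04 over the 14. Of 5 genes that span at least 1000 bases in RefSeq, longer than a usual histone gene, 4 were measured, and of 41 shorter genes 15. The long genes were H2BC4, H2BC5, H2BC12, H2BC21 and H3C6. All but H3C6 are also on the polyadenylated list, so the counts by length and by list largely overlap. These are counts over few genes, and the list was chosen with earlier results known.

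Many clustered histone genes could be seen only through probe sets assigned to several of them. There were 20 such probe sets, which reached 19 genes that have none of their own, and 28 of the 93 genes had neither kind. Of the 20, 8 were above the floor on both arrays, 3 on 1 array and 9 on neither. An H4 probe set made from the accession of H4C3 and assigned to 14 H4 genes had signals of 42554 in monolayer and 40623 in spheroids, which is -0.07 on the log2 scale. Another probe set, made from the accession of H4C11 and assigned to the same 14 genes, went from 433.8 to 194.5. It was 2.23-fold lower and the only shared probe set past 2-fold. The probe set assigned to H4C11 alone was at -0.06 on the log2 scale. The other 3 of the 14-gene H4 probe sets were under the floor or barely above it, the highest at 66.4.
Of 3 probe sets shared by H2AC18 and H2AC19, neighbouring H2A genes of the HIST2 cluster, 2 moved alike. They went from 511.4 to 845.7 and from 354.9 to 580.6, log2 differences of 0.73 and 0.71, while the other was under the floor on both arrays. Of the 3 probe sets shared by 5 H2B genes, 1 went from 193.0 to 283.8 (0.56), 1 from 229.0 to 141.7 (-0.69) and 1 went from 69.0 to 48.0, under the floor. Probe sets for the same 5 genes thus had opposite signs. Over 5506 genes of the array, the log2 differences of a gene's probe sets scattered around their mean with an SD of 0.41. This is not the SD of the gap between 2 probe sets, so the gap between these H2B probe sets cannot be judged by it directly.

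**Figure D4:**
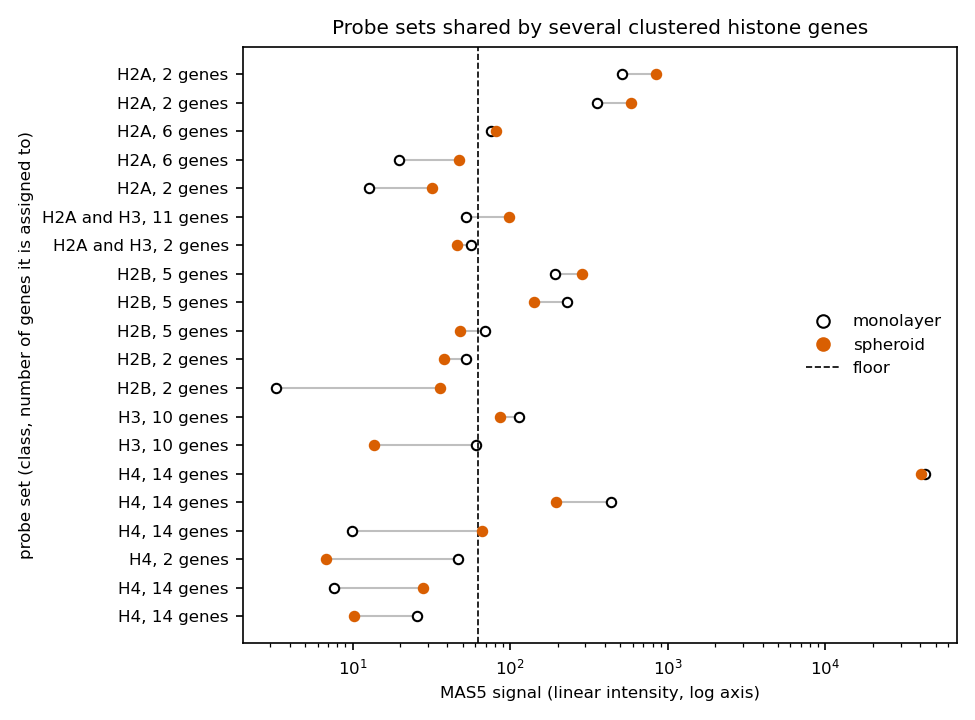
Signals of the 20 probe sets assigned to several clustered histone genes, on a log axis, with open circles for monolayer, filled circles for spheroids and the floor as a dashed line. The H4 probe set at the far right has nearly the same signal on both arrays, and a second H4 probe set for the same 14 genes is lower in spheroids.

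Factors that make and handle histone mRNA, 28 genes with a probe set of their own, gave signals over the floor on both arrays. Of these factors of histone transcription, 3' end processing, translation and decay, 2 were at least 2-fold higher in spheroids and 0 lower, where 2.29% and 2.69% of all genes measured on both arrays were, and their median log2 difference was 0.12. CCNE2, a cyclin E that with CDK2 starts S phase, went from 1230 to 3376 (1.46), and its other probe set was at 1.54. CASP8AP2, or FLASH, which is needed for cutting histone pre-mRNA, went from 836.5 to 1721 (1.04). NPAT, the coactivator of histone genes and a target of cyclin E and CDK2, went from 667.2 to 1160 (0.80), with its other probe set at 0.24. SLBP had signals of 10500 and 11110 (0.08). LSM11 and LSM10, of the U7 particle that cuts the pre-mRNA, were at 0.40 and -0.09, and ZNF473, which links that particle to SLBP, at 0.20. CCNE1 and CDK2 were at -0.16 and 0.15. CTIF and MIF4GD, which act in translation of histone mRNA, were at -0.91 and -0.83, and their other probe sets at -0.22 and -0.93.
Histone chaperones carry histones to DNA. Of 25 chaperones 0 were past 2-fold in either direction, against the same 2.29% and 2.69% of all genes, and the median was 0.04. ATRX, which deposits the variant H3.3 with DAXX, was at 0.91, and its 4 probe sets ran from 0.75 to 1.49. DNAJC9, an H3 and H4 chaperone, and ASF1A, which hands over H3 and H4, were at 0.51 and 0.50. HIRA, which deposits H3.3 outside S phase, was at -0.53.

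S phase genes and the histone variants listed as replication-independent were also close to the array's median. Of 29 S phase genes, such as those of the MCM helicase, 1 was at least 2-fold higher, CCNE2, and 0 were lower, close to the 2.29% and 2.69% of all genes, with a median of 0.07. CCNE2 is also on the list of histone mRNA factors and is counted there too, as are CCNE1, E2F1 and SLBP. FEN1, a flap endonuclease, was at 0.51, CDC6, which loads the helicase, at 0.45 and TK1, the thymidine kinase, at -0.47. The other probe set of TK1 had the opposite sign, at 0.26. Of 11 replication-independent histone variants 9 were measured, all 9 on both arrays and 0 past 2-fold, against the same shares of all genes, with a median of -0.08. H2AJ was at -0.66, H3-3A at -0.58, the linker histone H1-10 at -0.30 and H2AZ2 at 0.22, where the other probe sets of H2AZ2 ran down to -0.78. The signals of H3-3A were low, 207.6 in monolayer and 139.3 in spheroids, from 1 measured probe set of its own. H2AZ1 had signals of 33556 and 31735. With the spike-in scaling the medians of all these lists were higher by about the shift of the array. The median was then 0.17 for the variants and 0.32 for S phase genes.

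**Figure D5:**
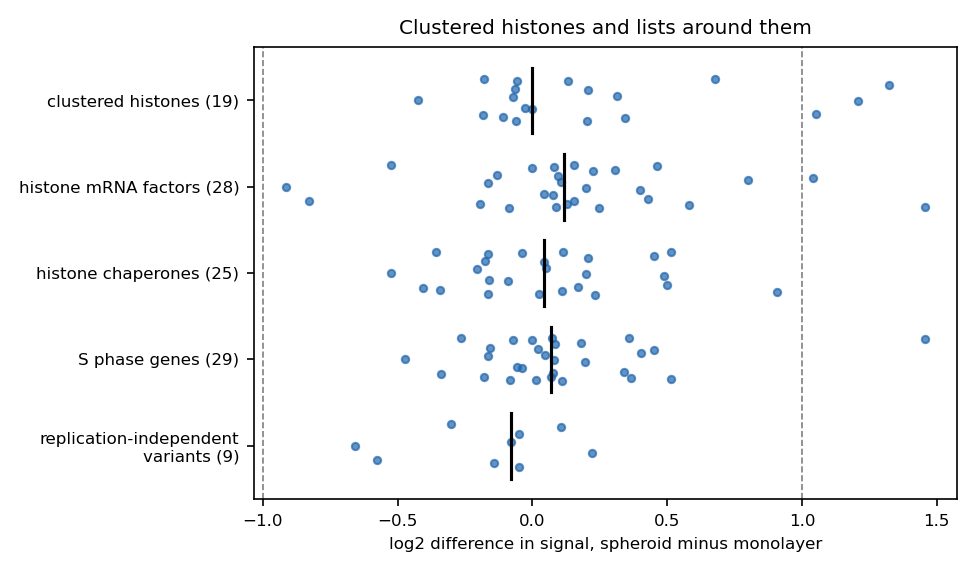
Log2 difference in signal between the spheroid and the monolayer array for measured clustered histone genes and for 4 lists around them, with the number of genes in parentheses, each dot a gene (bounds included), the black bar the list's median and dashed lines at 2-fold. The 5 medians lie between -0.08 and 0.12. CCNE1, CCNE2, E2F1 and SLBP appear both among histone mRNA factors and among S phase genes.

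Of the markers chosen for intestinal epithelium, some were clear on both arrays and others dim or absent. EPCAM, CDH1, KRT8, KRT18, KRT19 and KRT20 exceeded the floor on both arrays, VIL1, CDX2 and CEACAM5 on 1, and CDX1 was under it on both. VIL1 was at 100.5 in monolayer, CDX2 at 80.0 and CEACAM5 at 105.5 in spheroids. KRT20 was at 99.6 in monolayer and 218.4 in spheroids. The 3 leukocyte markers with a probe set of their own were under the floor. Of 5 fibroblast markers 2 were measured, COL1A1 with 1370 in monolayer and 1972 in spheroids and COL1A2 with 64.9 and 57.1, and of 3 endothelial markers 1, PECAM1. The part of other cells in the histone signals was not tested. Both arrays had a trimmed mean signal of 500.1. The spike-in controls added at hybridisation were dimmer for spheroids in 18 of 18 probe sets, by -0.25 on average on the log2 scale.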

How the data were processed

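RNA of HT-29 monolayer cells and of HT-29 spheroids was hybridised for the authors to Human Genome U133 Plus 2.0 arrays, and the deposited values are MAS5 signals from Affymetrix Expression Console, an intensity on a linear scale for each of 54675 probe sets, each array scaled to a trimmed mean of 500.1. The methods describe duplicates, and 1 array per condition was analysed here, which limits the precision. Probe sets were named through the platform annotation (41097 with 1 gene, 1801 with several, 11777 not listed), updated through gene numbers to RefSeq symbols of GRCh38.p14. Each gene was read from its brightest probe set by mean log2 signal. The floor was the 50th percentile over both arrays, and dimmer signals were raised to it before log2 was taken. A gene under it on 1 array has a bound and one under it on both has no fold. With 1 array per condition there is no test, and calls mean a 2-fold difference, the threshold of the methods. The members and lists were chosen with earlier results of these data known. Lists were histone mRNA factors, chaperones, S phase genes, replication-independent variants, polyadenylated and testis members, and cell type markers. Named in each class were the members with the largest differences, the brightest, those past 2-fold, those on 1 array and those whose probe sets disagree, and in each list the 4 largest differences with a fixed set of core factors. Promoter windows came from RefSeq, the first listed per gene. Genes reached by no probe set were not analysed here. The computation, in Python 3.11.15 with numpy 2.4.6, pandas 2.3.3 and matplotlib 3.10.9, was tested on simulated data. Alternatives were other scalings, floors, a pseudocount, other choices of probe set and a 3-fold threshold.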

Additional observations from a re-analysis of the deposited data

How the results depend on the processing

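No paired analysis was possible because each condition has 1 array and the labels give no replicate numbers. Leaving out an array was not possible for the same reason. The limit for a change of a median was 0.1 on the log2 scale, and for a count 1.5 times. With spike-in scaling, which moves the median of all genes from -0.05 to 0.18, medians were 0.23 for the clustered histone genes, 0.25 for H2A, 0.31 for H2B, 0.79 for H3, 0.20 for H4, 0.17 for replication-independent variants, 0.36 for histone mRNA factors, 0.29 for chaperones (1 of them at least 2-fold higher) and 0.32 for S phase genes. With the floor from olfactory receptors the clustered histone median was 0.20 (0 genes at least 2-fold higher), with H2B at 0.067, H3 at 0.57 and H4 at 0.28, and a floor at the 75th percentile put H2B at 0.067, where 0 of the 7 histone genes left were at least 2-fold higher. Without a floor 9 histone genes were at least 2-fold higher and 9 lower, with medians of 0.52 for H1, 0.25 for H2B and 0.27 for H3, because genes under the floor then enter with their dim signals. A pseudocount gave 7 higher and 6 lower, with H1 at 0.37, H2B at 0.20 and H3 at 0.18. Without _x_at and _s_at probe sets 10 histone genes were measured, with a median of 0.17, H2B at 0.072, H3 at 1.00, H4 at 0.51, variants at 0.16, mRNA factors at 0.25, chaperones at 0.22 and 2 S phase genes higher and 1 lower. With shared probe sets added H2A was at 0.12, H3 at 0.25 and 1 histone entry was at least 2-fold lower. When the probe set that differed most was taken, variants were at -0.30, mRNA factors at 0.41 with 4 higher, chaperones at 0.20 with 3 higher, and S phase genes had 3 higher and 1 lower. Median scaling left 1 mRNA factor higher, and a 3-fold threshold 0 histone genes. Of the other settings that measured the gene, H2BC21 was past 2-fold under 9 of 10, H3C6 under 9 of 11 and H4C4 under 10 of 11. None of the 3 was measured with the floor at the 75th percentile, nor H2BC21 without _x_at and _s_at probe sets. Except where stated, the cause of these shifts was not tested. The median of the clustered histone genes stayed within 0.25 of 0 under each setting run.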
